A study of Homo sapiens with 12 samples.

Results

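HT1080 is an established human fibrosarcoma line, a tumour of connective tissue grown in culture. The cells described here were transfected with a scrambled siRNA, a small duplex RNA meant to target no transcript, and so carry the line's profile after transfection rather than that of untouched cells. They make up 3 of the 12 RNA-seq samples of the series. The other groups, transfected with siRNA against TRIP12, against OTUD5 or against both (siTRIP12+siOTUD5), were not compared with them. The 3 were chosen by label alone. Their source field reads HT1080, HT1081 and HT1082, a number that counts up from sample to sample through the whole series, while the series design names HT1080 for all of them. The labels call the cells human sarcoma cells, and no treatment time, siRNA dose or passage is given in the sources used here. The labels do not say whether the 3 libraries came from separate cultures, so the SD given throughout measures the spread between these libraries, which may be technical.

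Sarcoma cells usually keep the intermediate filament and matrix programme of mesenchymal cells, which move as individual cells, hold on to their matrix through integrins and cut it with surface and secreted proteases. Epithelial cells instead join in sheets through E-cadherin, desmosomes and keratins. A line can also drop large parts of the programme of its tissue of origin in culture, and can switch on genes that are normally limited to the germ line. The account below follows that order: the most abundant transcripts, lineage, position and germ-line genes, receptors and ligands, matrix and proteases, metabolism and cycle control, and the genes with no reads.

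Between 39071730 and 42651955 reads were assigned to genes per library, 121889478 in all. Levels are FPKM, read counts scaled by transcript length and library size. They can be compared between genes only as far as the length used for each gene is right, which was not checked. A gene is counted as expressed here when it had at least 1 FPKM in all 3 libraries and silent when it had at most 3 reads over the 3 libraries together, a limit of 0.0246 CPM (read counts scaled to library size). Of 19672 protein-coding genes, 10381 (52.8%) were expressed, 5511 (28.01%) were silent and 3780 (19.2%) lay between. No read at all was found for 4946 of them. The counts of expressed and of silent members in the lists below are to be read against the 52.8% and 28.01% of all protein-coding genes. The median level was 1.83 FPKM over all protein-coding genes and 11.3 FPKM over those expressed. TRIP12, a ubiquitin ligase, and OTUD5, a deubiquitylase, which the siRNAs of the other groups target, were both expressed in these cells, at 30.8 ± 4.20 FPKM and 13.8 ± 1.39 FPKM (SD, n = 3 for all values of this form).

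The most abundant genes served translation, the cytoskeleton, glycolysis and mitochondrial respiration. In replicates 1, 2 and 3 the 100 highest genes held 34.2%, 34.7% and 35.4% of summed FPKM, and 357, 345 and 307 genes made up 50% of it. The 13 mRNAs of the mitochondrial genome held 10.8% ± 0.12 of summed FPKM and 3.87% ± 0.18 of reads. COX3, a subunit of cytochrome c oxidase, stood at 6641, 6866 and 7666 FPKM. The frames of ATP8 and ATP6, and those of ND4L and ND4, overlap, so reads cannot be divided between the members of each pair with certainty. Reads in ribosomal RNA genes made up 2.17% ± 0.19 of each library.

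Among 19659 nuclear protein-coding genes, GAPDH, the glycolytic dehydrogenase, was highest with 3426, 3653 and 3572 FPKM. RPS18, a protein of the small ribosomal subunit, followed with 2963, 3200 and 3511 FPKM. ACTB, cytoplasmic beta-actin, had 2471, 2547 and 2491 FPKM. GAPDH was above RPS18 in each library, but its lowest value lay under the highest of RPS18. RPS18 was above ACTB without overlap, and this was the 1 place among the 20 highest genes where neighbours in the order were fully separated; without replicate 3 there were 7. The rest of the 20, down to TMSB10 at 1430.0 ± 168 FPKM, form a series in which neighbouring genes overlapped between libraries. EEF1A1, which brings aminoacyl-tRNA to the ribosome, had 2171, 2273 and 2471 FPKM and took 1053782 reads. Its processed copy EEF1A1P5 was listed at 358 ± 35.7 FPKM, so part of the reads of that family could have been placed on either. Other entries of the 20 were NPM1, a nucleolar chaperone, with 1995 ± 258 FPKM and HSPA8, the constitutive heat shock cognate protein, with 1504 ± 52.1 FPKM. FTL, the ferritin light chain, stood at 1637 ± 134 FPKM. VIM, the mesenchymal intermediate filament vimentin, ranked 13 with 1665, 1645 and 1587 FPKM.

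**Figure D1:**
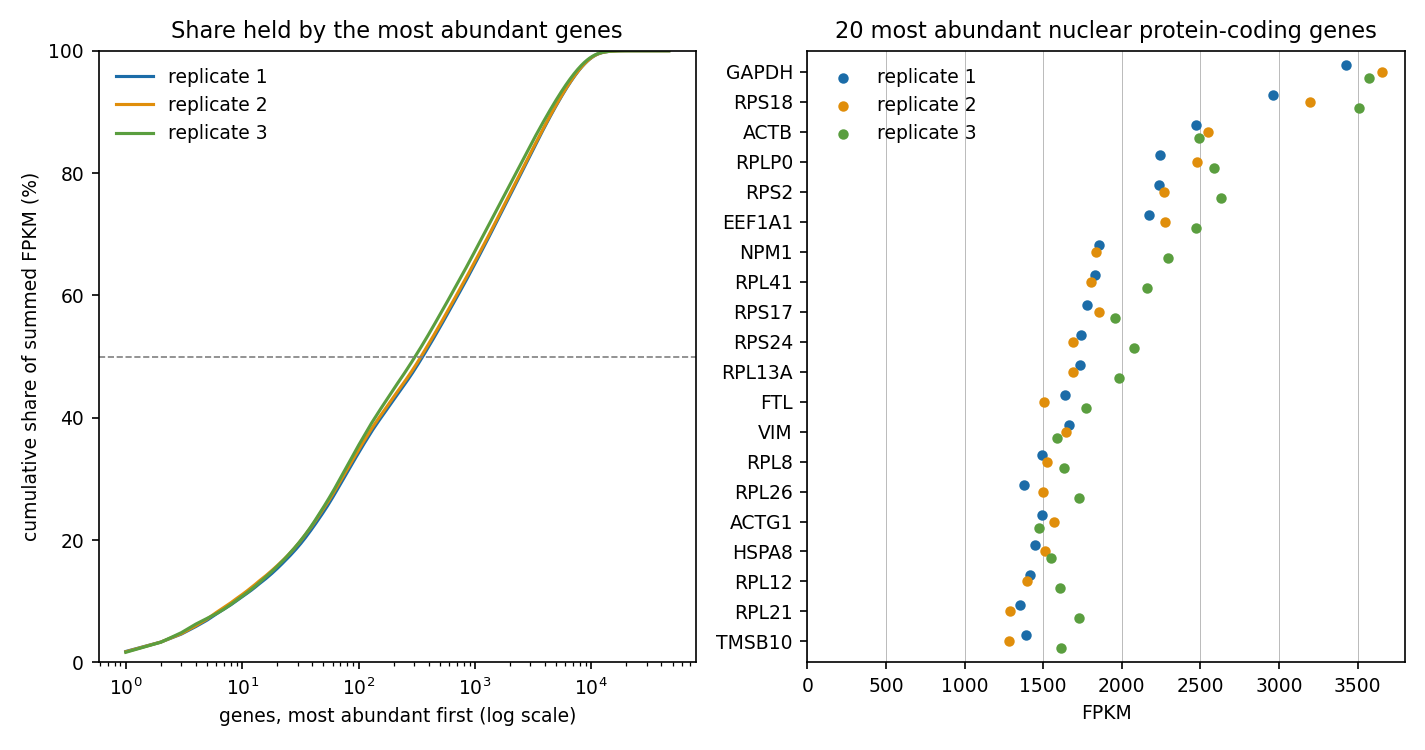
Left, the cumulative share of summed FPKM (percent) against the number of genes, most abundant first on a log axis, with 1 line per scrambled library and a dashed line at 50%; right, FPKM of the 20 most abundant nuclear protein-coding genes, 1 point per library. The lines of replicates 1 and 2 nearly coincide and that of replicate 3 reaches 50% with fewer genes (307 against 357 and 345), and GAPDH and RPS18 stand above the other 18 genes.

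All 77 cytosolic ribosomal protein genes counted here were expressed, with a median of 899.9 FPKM, and 54 of them were among the 100 highest nuclear protein-coding genes. They held 15.2%, 15.2% and 16.6% of summed FPKM, and 6.21%, 6.23% and 7.24% of reads, these mRNAs being short. The lowest in FPKM were RPL14 at 92.7 ± 7.95 FPKM, RPL37 at 99.3 ± 7.17 FPKM and RPS28 at 126 ± 8.67 FPKM. A pseudogene of the last, RPS28P7, was listed higher than its parent in FPKM, at 265 ± 33.9 FPKM. In reads the order was reversed, with 12957 for RPS28P7 and 21700 for RPS28. RPS29 took 21063 reads at 515 FPKM, so the low FPKM of RPS28 rests on the longer length that its reads and FPKM imply. The level of RPS28 is therefore uncertain. RPL14 and RPL37 took 85374 and 55664 reads, more than RPS27 with 47409 reads at 1019 FPKM. Their low FPKM rests on the longer length that reads and FPKM imply for them, so their place in the family is uncertain too.

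Transcripts of ribosomal protein genes are known to begin with a C followed by a stretch of pyrimidines, through which their translation responds to growth signals. RefSeq windows around the annotated start (build GRCh38.p14) were available for 62 of the 77 genes. Starts of the most abundant family of the profile are shown because many of them, though not all, carry this feature. Each is 28 bases, 5′ to 3′, with the annotated start at base 15, and capitals mark the unbroken run of C and T that holds the start.
RPS18 (chr6:33272061-33272088, plus strand): gcgtcacttccgCTCTCTCTTCCacagg
RPL41 (chr12:56116619-56116646, plus strand): ggaacttcgCCTTTCTCTCggccttagc
RPS24 (chr10:78033849-78033876, plus strand): ggcgaatcgtggTTCTCTTTTCCTCCTT
RPL13A (chr19:49487594-49487621, plus strand): gacaaaaCCTCCTCCTTTTCCaagcggc
RPL26 (chr17:8383180-8383207, minus strand): agcagcgtgtagTTCTCTTCCCTTTTgc
RPS28 (chr19:8321482-8321509, plus strand): ccccgaagcacgtgactcctctccgcca
RPS28, one of the lowest of the family in FPKM, has no capitals because its annotated start is an A. The base after that A is a C that opens a run of C and T, left unmarked because it does not hold the start. RPL14 at 92.7 FPKM and RPL28 at 153 FPKM, not shown, have C at the start, in runs of 14 and 13 bases. A relation of the start to the level was not tested. Over 77 windows of the family, 51 (66.2%) have C at the start, against 14.7% of the 35116 windows of the whole table. A C at the start with only C or T from 1 base before to 3 bases after it was present in 44 (57.1%) of the family's windows and in 4.63% of all windows. Windows of expressed protein-coding genes had a C at the start in 12.2% and that pattern in 6.39%. The other 46 of the 100 highest nuclear genes matched in 40 cases, and 13 of their 58 windows (22.4%) had that pattern. These shares describe annotated starts, not starts measured in these cells.

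Few of these starts have a TATA box, the element that positions the transcription machinery at some promoters. TATAAA lay on the gene's strand within the 50 bases before the start in 2.60% of ribosomal protein windows, in 10.3% of windows of the other most abundant genes and in 2.63% of all windows. Counting both strands, the shares were 5.19%, 10.3% and 3.47%. In windows of expressed protein-coding genes TATAAA was present in 1.40% on the gene's strand and in 1.90% counting both. DHRS2, RPLP0 and EEF2, 3 of the abundant genes that hold it, are shown with capitals on the match, 70 bases each, the start at base 61.
DHRS2 (chr14:23630055-23630124, plus strand): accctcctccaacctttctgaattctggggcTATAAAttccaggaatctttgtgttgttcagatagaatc
RPLP0 (chr12:120201102-120201171, minus strand): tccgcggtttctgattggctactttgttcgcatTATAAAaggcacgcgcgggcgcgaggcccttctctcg
EEF2 (chr19:3985454-3985523, minus strand): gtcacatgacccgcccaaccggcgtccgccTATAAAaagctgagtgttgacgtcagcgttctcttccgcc
DHRS2, a short-chain dehydrogenase/reductase found in mitochondria and nuclei, was at 1327, 1425 and 1452 FPKM, close to ENO1 and RACK1. Its window of 300 bases holds 0 CpG dinucleotides, against 25 for RPLP0 and 41 for EEF2 and a median of 26 over windows of expressed protein-coding genes.

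Vimentin was the highest gene of all the lineage lists. Of 26 fibroblast and mesenchymal markers, 13 were expressed and 7 were silent, shares near the 52.8% and 28.01% of all protein-coding genes. The summed level of the list was 2406, 2390 and 2302 FPKM, most of it vimentin. SPARC, a collagen-binding matrix protein, had 260, 274 and 265 FPKM, and P4HB, a subunit of prolyl hydroxylase, had 267 ± 6.89 FPKM. CAV1, the coat protein of caveolae, stood at 75.6 ± 1.98 FPKM, ENG, a TGF-beta co-receptor, at 44.02 ± 3.04 FPKM and CDH2, N-cadherin, at 17.5 ± 0.803 FPKM. FN1, fibronectin, was low at 9.26, 9.56 and 5.50 FPKM, and SPARC stood 28.1, 28.7 and 48.3 times above it. COL1A1, the alpha-1 chain of collagen I, had 2.06 ± 0.250 FPKM while its partner chain COL1A2 had 2, 0 and 6 reads. FAP, THY1, CDH11, POSTN, DCN and PRRX1, all common in fibroblasts, had 0 reads in the 3 libraries. PDGFRA and COL3A1 lay under 0.01 FPKM, and PDGFRB, the other platelet-derived growth factor receptor, was at 0.618 ± 0.120 FPKM.

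Among 26 epithelial markers 4 were expressed and 13 silent. KRT8 and KRT18, the keratins of simple epithelia that form filaments together, had 158, 162 and 168 FPKM and 124, 116 and 129 FPKM. KRT8 was 1.33 ± 0.0686 times as high as KRT18, and vimentin was 10.04 ± 0.574 times as high as KRT8. PKP3, a desmosomal plaque protein, and KRT7 followed at 6.13 ± 0.205 FPKM and 3.89 ± 0.213 FPKM. CDH1, E-cadherin, had 2 reads in all and KRT19 had 2. EPCAM, CDH3, GRHL2, ELF3 and RAB25 had 0 reads, and the splicing regulators ESRP1 and ESRP2 lay at 0.023 and 0.02 FPKM. KRT81, a hair keratin with near-identical relatives, was listed at 161, 168 and 182 FPKM, at the level of KRT8, and its share against those relatives is uncertain.

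Other lineages were present only as isolated genes. Of 18 endothelial markers 4 were expressed, led by TIE1, an orphan receptor tyrosine kinase of vessels, with 50.6, 52.9 and 45.1 FPKM. EGFL7, NOS3 and ROBO4 followed at 15.5 ± 2.15, 6.71 ± 0.396 and 6.29 ± 0.465 FPKM. The defining genes PECAM1, CDH5, VWF and KDR lay between 0.023 and 0.17 FPKM, and FLT1 had 0 reads. Of 18 skeletal muscle markers 1 was expressed, TNNT1, slow troponin T, with 35.8, 36.8 and 40.8 FPKM; MYOD1, MYOG, PAX3 and PAX7 had 0 reads. Of 20 leukocyte markers 5 were expressed. These were CD68 at 37.8 ± 2.59 FPKM, LCP1 at 13.5 ± 1.17 FPKM, CSF1R, CORO1A and LAPTM5, while PTPRC, the common leukocyte antigen, was at 0.006 FPKM and CD14 had 0 reads. Of 18 neural markers TUBB3, a neuronal beta-tubulin, and NEFL, a neurofilament, were expressed at 56.9 ± 1.09 FPKM and 14.4 ± 0.393 FPKM. Of 12 hepatocyte markers 0 were expressed. SOX9, a transcription factor of cartilage and several progenitors, was at 29.8 ± 1.13 FPKM, while its cartilage targets COL2A1 and ACAN had 3 and 2 reads. DCT and MITF were the 2 of 10 melanocyte markers expressed, at 7.16 ± 0.292 FPKM and 3.83 ± 0.0403 FPKM. These are bulk libraries, in which a gene at low level in every cell and a high level in few cells cannot be told apart.

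**Figure D2:**
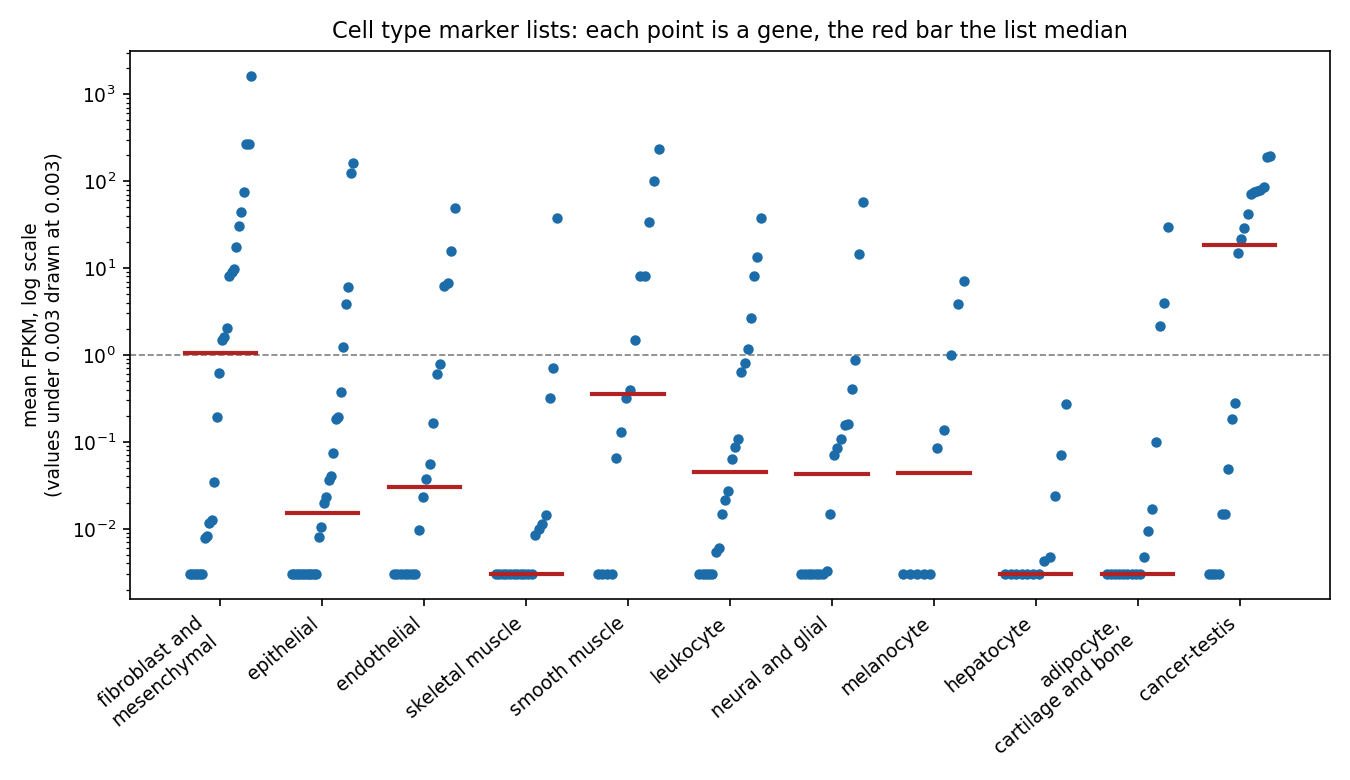
Mean FPKM over the 3 scrambled libraries (log axis, values under 0.003 drawn at 0.003) for each gene of 11 marker lists; points are genes, red bars the list medians and the dashed line is 1 FPKM. Every list except the hepatocyte list has genes above the line, and the cancer-testis list has the highest median (18.4 FPKM).

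Of the 14 smooth muscle markers, 6 (42.9%) were expressed and 4 silent, against 52.8% and 28.01% of all protein-coding genes. TPM2 and TPM1, tropomyosins, had 234 ± 17.2 and 101 ± 2.77 FPKM, while TAGLN lay at 0.13 FPKM and MYH11, ACTG2 and MYOCD had 0 reads. Of 24 actin, tropomyosin and myosin genes 20 were expressed, 14 of them at 100 FPKM or more. ACTB was 1.66 ± 0.0361 times as high as ACTG1. TMSB10 and TMSB4X, thymosins that bind actin monomers, were far apart. TMSB10 had 1393, 1284 and 1613 FPKM, TMSB4X 2.83, 3.15 and 4.23 FPKM (76, 82 and 120 reads), a ratio of 382 to 492. TMSB4X has many processed copies in the genome, and how the authors placed reads that match several of them is not given in the sources used here. Lamins were high as well, LMNA with 130 ± 4.92 FPKM and LMNB2 with 110 ± 8.82 FPKM. Of 28 cadherin and junction genes 14 were expressed. CTNNA1 and CTNNB1, alpha- and beta-catenin, had 133 ± 3.85 and 100 ± 0.877 FPKM, and N-cadherin, the highest cadherin of the list that forms such junctions, overlapped with CDH4 at 17.1 ± 2.03 FPKM. CLDN1 had 0 reads and GJA1, the common gap junction protein, had 3, while GJC1 stood at 18.7 ± 0.629 FPKM.

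Transcription factors linked to mesenchymal transition were expressed in 13 of 20 cases. FOSL1, an AP-1 subunit downstream of ERK signalling, was highest with 129, 127 and 125 FPKM. ZEB1 had 11.98 ± 1.53 FPKM, TWIST2 8.94 ± 0.743 FPKM, SNAI1 7.20 ± 0.694 FPKM and SNAI2 4.38 ± 0.314 FPKM. TWIST1 was lower, at 1.60 ± 0.466 FPKM. PRRX1, TBX15, HAND2 and MEOX2 had 0 reads.

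HOX genes encode the position of a cell along the body axis and keep much of their pattern in culture. All 39 are in the table, of which 21 (53.8%, near the 52.8% of all protein-coding genes) were expressed and 8 silent. Those expressed were 4 of 11 in HOXA, 7 of 10 in HOXB, 6 of 9 in HOXC and 4 of 9 in HOXD. HOXA9 was highest at 15.5, 15.0 and 18.3 FPKM, above HOXA10 with 14.6, 12.6 and 14.3 FPKM without overlap. HOXB9 at 13.4 ± 0.627 FPKM overlapped with HOXA10, and HOXB7 and HOXB2 came next with 10.98 ± 0.576 and 8.39 ± 1.14 FPKM. In HOXA the high genes lay beside silent ones: HOXA7 and HOXA11 had 0 reads on the sides of HOXA9 and HOXA10. HOXC peaked at HOXC9 and HOXC10 with 5.60 ± 1.03 and 4.33 ± 0.458 FPKM, then HOXC11 and HOXC12 had 2 reads each and HOXC13 returned at 1.84 ± 0.227 FPKM. In HOXD, HOXD11 and HOXD10 led with 3.32 ± 0.218 and 2.84 ± 0.174 FPKM, and HOXD1, HOXD3 and HOXD13 had 0 reads. HOXB1 had 0 reads too. Neighbours in the order of levels were fully separated in 8 of 20 places.

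**Figure D3:**
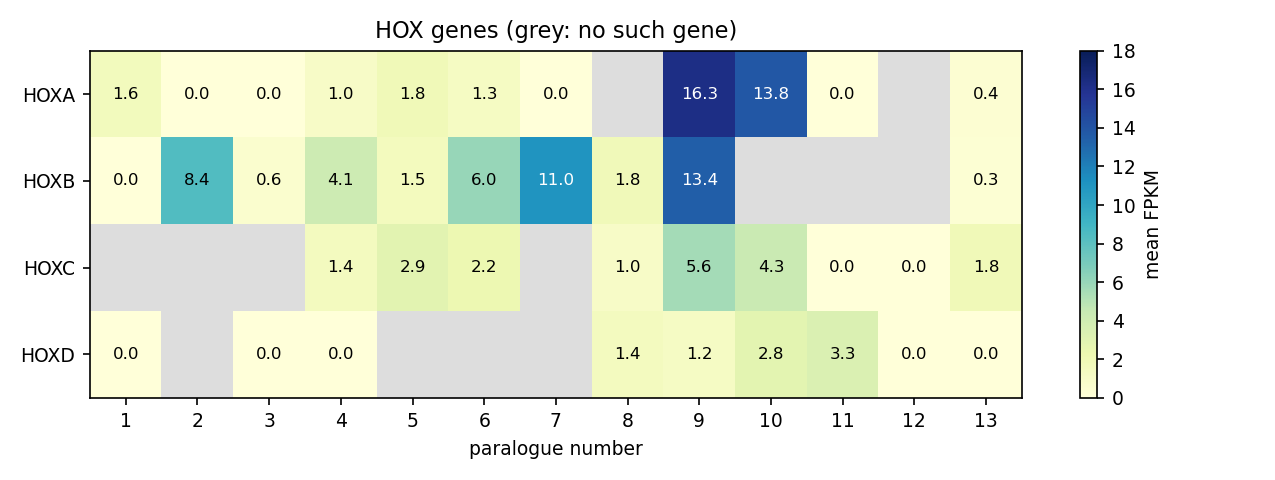
Mean FPKM over the 3 scrambled libraries of the 39 HOX genes, with the cluster in rows and the paralogue number in columns; colour and printed value give the level and grey cells have no gene. The highest values are at paralogues 9 and 10 of HOXA (16.3 and 13.8) and at 9 and 7 of HOXB (13.4 and 10.98).

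Cancer-testis genes, which most adult tissues other than the germ line keep off, were expressed in 11 of 20 cases (55.0%), a share near the 52.8% of all protein-coding genes, and their median was 18.4 FPKM, against 1.83 FPKM over all protein-coding genes. CTAG2 had 193, 178 and 215 FPKM and PAGE5 had 162, 192 and 216 FPKM, and these overlap. SSX1, a transcriptional corepressor, had 80.9, 82.8 and 93.4 FPKM. CTAG1B, which encodes the tumour antigen NY-ESO-1, stood at 78.9 ± 2.63 FPKM. MAGEA3, MAGEA6, MAGEB2 and MAGEA1 stood at 75.99 ± 4.39, 74.1 ± 5.52, 70.6 ± 8.21 and 42.04 ± 4.66 FPKM. PRAME, a substrate receptor of a ubiquitin ligase, was at 21.9 ± 0.0552 FPKM. MAGEA4, MAGEA10, SSX4 and CTCFL had 0 reads. Several of these genes have near-identical copies (MAGEA3 and MAGEA6, CTAG1B and CTAG2, the GAGE group), so the split within each set is uncertain.

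Receptor tyrosine kinases, the receptors of most growth factors, were expressed in 19 of 56 cases (33.9%) and silent in 17. Over all protein-coding genes the shares were 52.8% and 28.01%. AXL, the receptor of GAS6, was highest with 149, 146 and 134 FPKM, above all other members in each library. Its ligand GAS6 was made by the same cells at 78.8, 79.7 and 82.0 FPKM. TYRO3, a relative of AXL, had 10.7 ± 0.706 FPKM and MERTK 0.20 FPKM. EPHA2, an ephrin receptor, had 49.99, 51.0 and 46.5 FPKM and overlapped with TIE1. EPHB2 and EPHB4 followed RYK (32.6 ± 2.13 FPKM) at 25.9 ± 2.00 and 17.5 ± 0.926 FPKM. EGFR had 17.3, 17.0 and 10.8 FPKM and MET 12.3, 12.5 and 9.92 FPKM, both lowest in replicate 3. The EGFR ligands HBEGF and TGFA were at 33.8 ± 2.09 and 25.5 ± 1.57 FPKM, while AREG and BTC, and HGF, the ligand of MET, had 0 reads. KIT, RET, FLT3, NTRK2 and ALK were silent. CSF1R, the macrophage growth factor receptor, had 8.60, 9.56 and 6.31 FPKM, and its ligand CSF1 16.6, 17.9 and 15.8 FPKM.

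For the other growth factor families, 10 of 14 TGF-beta and BMP receptors were expressed and 0 were silent. TGFBR2 had 38.6, 39.0 and 31.2 FPKM and TGFBR1 10.8 ± 0.324 FPKM, beside TGFB1 at 74.01 ± 3.00 FPKM. Of 34 cytokine receptors 20 (58.8%) were expressed, against 52.8% of all protein-coding genes. They were led by IL6ST, the shared signalling chain of the interleukin-6 family, with 38.9, 35.4 and 28.2 FPKM. OSMR and IL6R, which pair with it, had 20.3 ± 2.96 and 14.4 ± 1.29 FPKM, while IL11RA was at 1.72 ± 0.0607 FPKM and its ligand IL11 at 32.3 ± 1.97 FPKM. Both chains of the interferon-gamma receptor and both of the interferon-alpha receptor were expressed, between 3.79 and 15.6 FPKM. Among 23 death and TNF receptors, TNFRSF10B, a TRAIL receptor, had 159, 161 and 136 FPKM. TNFRSF10A, the other TRAIL receptor with a death domain, had 0 reads, and the decoy receptors TNFRSF10C and TNFRSF10D lay at 0.046 FPKM and 3 reads. TNFRSF12A, the receptor of TWEAK, stood at 113, 118 and 114 FPKM and FAS at 7.88 ± 0.657 FPKM. NOTCH2 led the Wnt, Notch and Hedgehog receptors with 48.0, 49.0 and 29.8 FPKM, again lowest in replicate 3, against 5.27 ± 1.33 FPKM for NOTCH1.

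Of 50 G protein-coupled receptors, 13 were expressed and 18 were silent. The highest were the adhesion receptors ADGRE5 and ADGRL2 with 15.1 ± 0.814 and 13.3 ± 1.94 FPKM and the orphan receptor GPRC5A with 13.1 ± 2.15 FPKM. LPAR3, a lysophosphatidic acid receptor, had 8.41 ± 0.124 FPKM while LPAR1 had 2 reads. The protease-activated receptors F2R, F2RL1 and F2RL2 were at 7.51 ± 0.277, 6.33 ± 0.342 and 5.12 ± 0.286 FPKM. CXCR4, ACKR3 and AGTR1 had 0 reads. Nuclear receptors were expressed in 20 of 47 cases, with NR2F6, ESRRA and NR1H2 at 36.5 ± 2.41, 29.7 ± 1.08 and 29.6 ± 0.851 FPKM. NR3C1, the glucocorticoid receptor, had 10.6 ± 0.653 FPKM. The steroid receptors ESR1 and PGR lay at 0.86 and 0.48 FPKM.

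Among 60 ligands 33 (55.0%) were expressed, a share near the 52.8% of all protein-coding genes. MIF, a cytokine stored in the cytoplasm, had 483, 436 and 526 FPKM. CCN1, a matrix-bound protein induced by YAP and serum response factor, had 262, 263.9 and 273 FPKM. GDF15, a stress-induced TGF-beta family member, was at 104 ± 9.49 FPKM. IL1B, LIF and VEGFA were at 11.9 ± 0.712, 16.7 ± 1.75 and 16.3 ± 1.43 FPKM. CXCL12, CXCL1, CXCL2, IGF1, FGF7 and BMP4 had 0 reads, so CXCL12 and its receptor CXCR4 were both without a read.

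Of 26 integrin subunits 10 were expressed, and their order was separated in 7 of 9 places. ITGB1, the beta-1 chain, had 276, 283 and 288 FPKM. Its partners came next: ITGA3, a laminin receptor chain, with 168, 176 and 142 FPKM, ITGA5, the fibronectin receptor chain, with 80.9, 82.6 and 65.7 FPKM, and ITGA6 with 73.8, 72.1 and 67.1 FPKM. ITGB5 and ITGAV, which form a vitronectin receptor, had 70.3 ± 4.06 and 40.04 ± 3.40 FPKM. ITGA2 was at 23.9 ± 4.88 FPKM. ITGB4, the epithelial partner of ITGA6, lay at 0.036 FPKM and ITGA11, a collagen receptor of fibroblasts, at 0.0061 FPKM.

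The highest basement membrane genes were above every fibrillar collagen, the kind that builds connective tissue. Of 11 fibrillar collagen genes 3 were expressed, of which COL27A1 was highest at 8.31 ± 0.212 FPKM. Of 33 other collagens 11 were expressed. The type IV chains COL4A2 and COL4A1, whose genes share a promoter region head to head, had 121, 127 and 100 FPKM and 80.6, 80.5 and 62.0 FPKM, a ratio of 1.56 ± 0.0555. The type VI chains COL6A2, COL6A3 and COL6A1 stood at 36.5 ± 1.87, 31.2 ± 7.65 and 27.6 ± 2.89 FPKM, and COL13A1, a membrane collagen, at 35.9 ± 0.863 FPKM.

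Laminins are trimers of an alpha, a beta and a gamma chain. LAMB3, a beta chain, was highest with 434, 446 and 415 FPKM, far above LAMA3, an alpha chain it pairs with, at 0.04 FPKM. LAMC1 had 57.3, 58.0 and 44.2 FPKM and LAMB1 18.6 ± 0.791 FPKM. The highest alpha chain was LAMA1 at 2.03 ± 0.282 FPKM, so every alpha chain was below each of LAMB1, LAMB2, LAMB3 and LAMC1. AGRN, a heparan sulfate proteoglycan, was at 96.6 ± 12.9 FPKM and NID1, which links laminin to collagen IV, at 8.95 ± 1.90 FPKM, while NID2 had 0 reads.

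Of 31 matrix glycoproteins 15 were expressed. After SPARC and CCN1 came TGFBI at 113 ± 4.93 FPKM, TNC at 51.9 ± 10.5 FPKM and EFEMP1 at 38.1 ± 0.426 FPKM. ELN, VTN and POSTN had 0 reads, and IGFBP3 had 3. CD44, the hyaluronan receptor, was at 146, 155 and 142 FPKM, while the hyaluronan synthases were low, with 1.47, 1.94 and 1.15 FPKM for HAS3, 0.02 FPKM for HAS2 and 0 reads for HAS1. SRGN, SDC1 and SDC4, carriers of glycosaminoglycan chains, had 80.3 ± 9.25, 74.4 ± 1.76 and 55.7 ± 3.13 FPKM. Collagen-modifying enzymes were expressed in 14 of 18 cases. TGM2, a crosslinking transglutaminase, had 155, 153 and 121 FPKM and LOXL2, a lysyl oxidase, 62.2, 61.2 and 50.9 FPKM. The lysyl hydroxylases PLOD3, PLOD1 and PLOD2 stood at 52.3 ± 0.432, 45.3 ± 3.72 and 38.5 ± 0.0943 FPKM, above every fibrillar collagen.

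Of 30 genes for proteases that cut the matrix 17 (56.7%) were expressed, and of 12 inhibitors and receptors 7 (58.3%). These shares lie near the 52.8% of all protein-coding genes. PLAU, urokinase, had 182, 180 and 191 FPKM and its receptor PLAUR 66.9, 73.5 and 81.2 FPKM. MMP14, a membrane-bound metalloprotease that activates MMP2, had 134, 135 and 135 FPKM, 7.20 ± 0.344 times that of MMP2 with 19.2, 19.1 and 17.7 FPKM. MMP9 was at 11.8 ± 0.804 FPKM, and MMP8, MMP10 and MMP11 had 0 reads. TIMP1 and TIMP2, metalloprotease inhibitors, stood at 75.3 ± 7.07 and 66.9 ± 3.14 FPKM, while TIMP3 lay at 0.093 FPKM and TIMP4 had 0 reads.

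**Figure D4:**
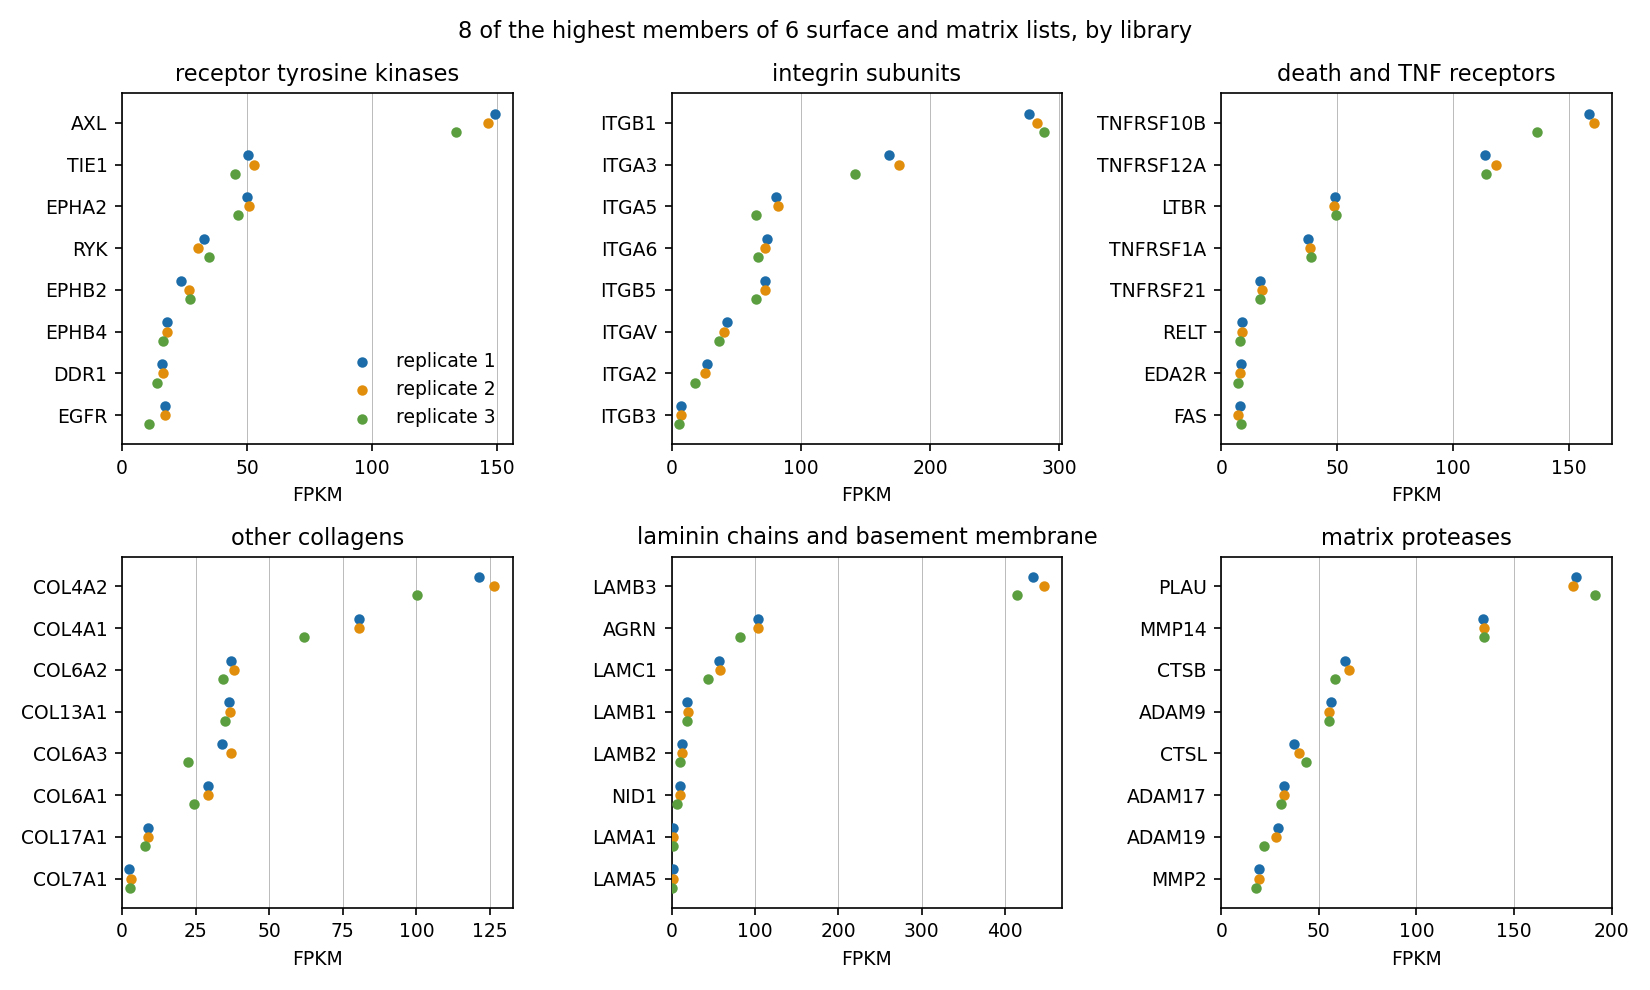
FPKM (linear axes from 0) of 8 of the highest members of each of 6 lists, with 1 point per scrambled library. AXL, ITGB1, TNFRSF10B, COL4A2, LAMB3 and PLAU lead their lists, and long transcripts such as ITGA3, COL4A2 and COL6A3 are lowest in replicate 3.

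Of 32 genes of glycolysis, a list that holds transporters of glucose and lactate beside the enzymes, 22 were expressed, 13 of them at 100 FPKM or more. The transporters SLC16A3, SLC16A1, SLC2A1 and SLC2A3 are among those expressed, SLC16A3 at 144 ± 3.99 FPKM. For most steps 1 paralogue was far above the others. ENO1 had 1413 ± 48.3 FPKM against 20.1 ± 2.35 FPKM for ENO2. PKM, the pyruvate kinase of growing cells and muscle, had 1098 ± 38.7 FPKM and PKLR 0 reads. HK1 was 6.71 ± 0.654 times as high as HK2. LDHB, the lactate dehydrogenase chain of heart, had 751, 784 and 921 FPKM and LDHA, that of muscle, 581, 597 and 612 FPKM, a ratio of 1.29 to 1.51 with LDHB higher in 3 of 3 libraries. All 22 genes of the TCA cycle list were expressed. IDH1, the cytosolic isocitrate dehydrogenase, had 40.9, 40.8 and 49.2 FPKM, while its mitochondrial counterpart IDH2 was the lowest of the 22 with 1.74, 2.30 and 1.78 FPKM. Iron storage was led by FTL, which was 3.75 ± 0.161 times as high as FTH1, the heavy chain. TFRC, the transferrin receptor, stood at 107 ± 8.62 FPKM, and SLC40A1, the iron exporter ferroportin, had 0 reads. Peroxide defence was expressed in 13 of 16 cases, with PRDX1 at 667 ± 78.6 FPKM and GPX4, which reduces lipid peroxides, at 178 ± 16.01 FPKM. Of 20 S100 and galectin genes 11 (55.0%) were expressed, near the 52.8% of all protein-coding genes. LGALS1 was at 1072 ± 36.4 FPKM and S100A6 at 516 ± 45.4 FPKM. S100A4, often used as a fibroblast marker, was at 1.48 ± 0.0224 FPKM.

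The RAS and ERK pathway was expressed almost whole, in 27 of 30 cases. Among the RAS genes, NRAS had 22.6 ± 1.70 FPKM and HRAS 19.8 ± 1.84 FPKM. Feedback genes of the pathway were uneven. DUSP5, a nuclear ERK phosphatase, had 169, 170 and 185 FPKM, whereas DUSP6, its cytoplasmic relative, had 6, 2 and 5 reads and SPRY1 had 0. SPRY2, SPRY4, ETV4 and ETV5, which ERK activity also induces, were expressed at 16.2 ± 1.14, 10.7 ± 0.925, 19.5 ± 0.470 and 22.8 ± 0.429 FPKM.

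Of 23 regulators of the G1 phase 20 were expressed and 3 had no read: CDKN2A and CDKN2B, which encode inhibitors of CDK4 and CDK6, and CDKN1C. CDK4 had 120, 112 and 129 FPKM and CCND1, cyclin D1, 121, 116 and 108 FPKM. CDK4 was 4.60 to 6.67 times as high as CDK6. CDKN1A was at 50.2 ± 1.17 FPKM, MDM2 at 30.2 ± 1.77 FPKM, and RB1 at 20.6 ± 0.928 FPKM.

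Of the silent cell cycle inhibitors, CDKN2A and CDKN2B lie next to each other on 9p21, and the genes around them were read in order along the chromosome (GRCh38.p14 coordinates). MLLT3, at chr9:20341669-20622499, had 3.39 ± 0.133 FPKM and FOCAD, the next gene, 10.7 ± 0.414 FPKM. HACD4 had 0 reads, and of the 16 interferon genes that follow 15 were silent. KLHL9, at chr9:21329665-21335404 among them, was expressed at 6.90, 7.16 and 6.59 FPKM. IFNE was at 0.355, 0.113 and 0.235 FPKM. MTAP, the phosphorylase of the methionine salvage pathway at chr9:21802636-21941115, had 0.225, 0.244 and 0.258 FPKM (192 reads in all). CDKN2A, at chr9:21967752-21995324, and CDKN2B, at chr9:22002903-22009313, had 0 reads in 121889478. DMRTA1, at chr9:22446824-22455740, returned 0.942, 0.768 and 0.787 FPKM, and ELAVL2 had 0 reads. RNA levels alone do not separate a missing gene from one that is not transcribed.

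Interferon response genes were expressed in 17 of 31 cases (54.8%), a share near the 52.8% of all protein-coding genes. IFITM3 and IFITM2, membrane proteins that restrict virus entry, stood at 209 ± 14.7 and 76.02 ± 5.59 FPKM and ISG15 at 28.02 ± 1.01 FPKM. MX1 was at 0.13 FPKM in each library, and IFI44L, RSAD2, HERC5 and IRF7 had 0 reads. These cells had received a duplex RNA, and no group of the series is labelled as untransfected, so levels without transfection cannot be given. All 15 genes of the small RNA machinery were expressed. AGO1 and AGO2, Argonaute proteins that load guide strands, had 9.73 ± 2.29 and 6.58 ± 1.42 FPKM, and DICER1 9.38 ± 1.20 FPKM.

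Some silent genes lay side by side in gene clusters. Of 395 olfactory receptor genes 379 (95.9%) were silent, as were 89 of 93 keratin-associated protein genes and all 39 beta-defensin genes, against 28.01% of all protein-coding genes. Of 512 genes named ZNF, mostly zinc finger transcription factors, 54 (10.5%) were silent. Along the autosomes and X there were 39 runs of at least 10 consecutive silent protein-coding genes, which held 624 of the 5375 silent genes placed (11.6%), so most silent genes lay outside such runs. The longest had 41 genes, from OR5D13 to APLNR (chr11:55773438-57237250), 38 of them olfactory receptors. Next came 36 genes from GRIK1 to KRTAP19-8 (chr21:29536933-31038476), 33 of them keratin-associated proteins, and 30 from AADACL4 to LRRC38 (chr1:12644085-13514003), which hold the PRAMEF cluster. The run of 25 genes from OR51D1 to HBD (chr11:4637477-5234483) includes HBB, adult beta-globin. The run of 24 from KRTAP4-7 to KRT33B lies on chr17:41084150-41369813, and that of 22 from HMX1 to DEFB131A, with the USP17L copies, on chr4:8846076-9450666. Several of these clusters hold near-identical copies, and how reads matching more than 1 gene were counted is not given in the sources used here.

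Among non-coding genes, 492 of 14763 lncRNAs and 156 of 541 snoRNA genes were expressed. The highest entries were ribosomal RNAs: RNR2 of the mitochondrial genome at 1578 ± 126 FPKM, RNA28SN1, RNA28SN3 and RNA28SN2 at 1109.8 ± 202, 874 ± 161 and 825 ± 153 FPKM, and RNR1 at 640 ± 95.3 FPKM. The 3 listed 28S copies are near-identical and their split is uncertain. The libraries were made for mRNA, so ribosomal RNA and snoRNA levels here do not measure the amount of these RNAs in the cells. The highest lncRNAs were the snoRNA hosts SNHG29, SNHG5 and GAS5 with 358 ± 23.98, 201.6 ± 38.4 and 200.7 ± 18.2 FPKM; GAS5 and SNHG5 transcripts carry a pyrimidine start as ribosomal protein mRNAs do.

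The 3 libraries were close for most genes, and replicate 3 stood apart in a way that followed transcript length. Over 5817 genes of at least 10 FPKM the median coefficient of variation (CV) was 6.66%, and it was 2.65% without replicate 3. Across the 11533 expressed genes of all types, the Pearson correlation of log2 levels was 0.996 between replicates 1 and 2, 0.991 between 1 and 3 and 0.991 between 2 and 3 (genes are not independent replicates). The deviation of a gene from its 3-library mean ran with transcript length with a Spearman rho of 0.443 and 0.393 in replicates 1 and 2 and of -0.541 in replicate 3. In the decile of longest transcripts, with a median of 9120 bases, the median deviation was 0.14, 0.12 and -0.26 on the log2 scale. The deviations of a gene over the 3 libraries cancel out by construction, so these opposite directions are not separate results. The share held by ribosomal protein genes, whose mRNAs are short, was highest in replicate 3 (16.6%), and FN1, EGFR, NOTCH2 and COL6A3, whose mRNAs are long, were lowest there. What produced the difference was not tested.

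**Figure D5:**
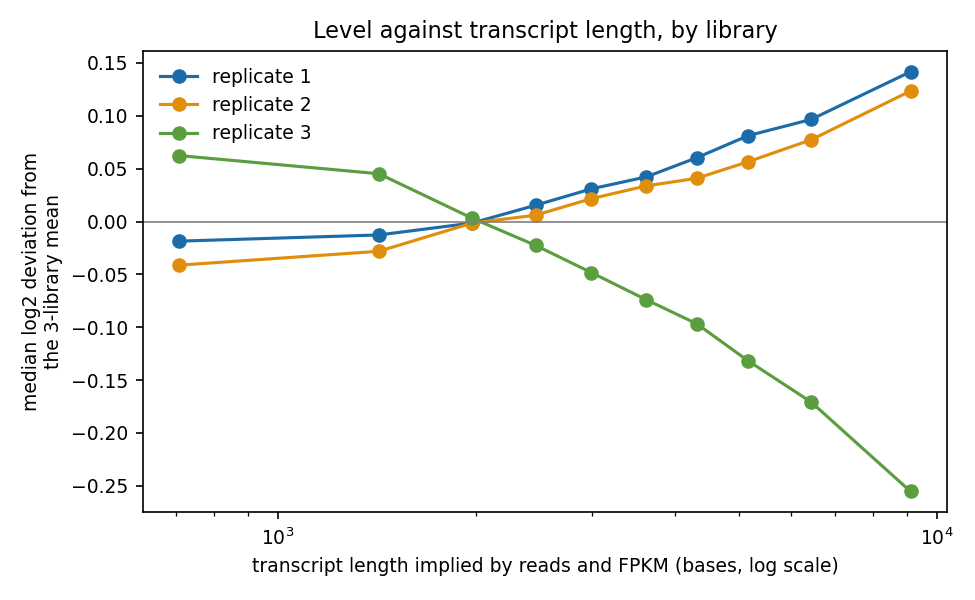
Median log2 deviation of a gene's level from its 3-library mean against transcript length (bases, log axis) in 10 length bins, 1 line per scrambled library. Replicate 3 falls from 0.06 in the shortest bin to -0.26 in the longest, and replicates 1 and 2 run the other way. Deviations from a shared mean cancel out over the libraries, so these directions are linked by construction.

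A few genes varied far more than this, and for several of them FPKM moved while reads did not. NCKAP1, a subunit of the WAVE complex that drives actin branching, had the largest CV (57.0%), with 38.8, 46.3 and 11.5 FPKM from 10366, 9919 and 10583 reads. EPN1, an endocytic adaptor, had 36.2, 56.5 and 94.3 FPKM from 11713, 12020 and 12278 reads. SFPQ, a splicing factor, had 74.1, 83.6 and 135 FPKM from 21532, 20671 and 23763 reads. The length implied by reads and FPKM differed by 3.96, 2.62 and 1.74 times between libraries for these genes, so their FPKM are not levels of 1 fixed transcript. Such a difference of more than 1.5 times was found in 8 of 5580 nuclear protein-coding genes of at least 10 FPKM. A length that is off alike in all libraries would not show in this comparison. The other genes of the 5 with the largest CV, KIAA0754 (13.2, 12.95 and 5.11 FPKM; 4194, 4000 and 1719 reads) and C17orf49 (8.31, 10.4 and 15.8 FPKM; 303, 368 and 601 reads), moved in reads as well.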

How the data were processed

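RNA was isolated with a column kit and made into TruSeq Stranded mRNA libraries, per the labels' protocols. The submitters' processing notes name HISAT2 and StringTie with build GRCh38, without versions or settings. The authors deposited 1 table of 46427 genes holding read counts and FPKM per gene for all 12 samples, and the counts and FPKM of the 3 scrambled libraries were used as deposited. The deposited TPM columns were not used. A few list members are not reported here.

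Means, SDs, shares, ranks and classes were computed with Python 3.11.15, numpy and pandas, without a contrast, model or p-value. The members and the 44 gene lists (990 genes) were chosen with earlier results of these data known. Genes were named by rule: the 20 most abundant nuclear protein-coding genes, up to 6 of the highest per list with silent defining members, all HOX and 9p21 genes, the 6 longest silent runs, the 5 genes of largest CV and the 5 highest non-coding genes. Values beyond these (further list members, DHRS2, the lncRNAs SNHG5 and GAS5, TRIP12 and OTUD5) were chosen after their values were seen. In the order of levels, neighbours count as separated when the lowest library of the higher gene exceeds the highest library of the lower. Of all IDs, 44698 were found in the RefSeq gene table (GRCh38.p14), which gave chromosome positions, and promoter windows of 300 bases came from RefSeq. Transcript length was taken from reads divided by FPKM. The functions for spread, length relation, shares and runs were tested on simulated data. The limit of 3 reads covers counting error only.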

Additional observations from a re-analysis of the deposited data

How the results depend on the processing

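No paired analysis was possible because no groups are compared. The number of expressed genes (11533), of silent protein-coding genes, of expressed list members and of long silent runs stayed within 1.5 times under every alternative limit, scale and left-out library tried: 0.5 or 5 FPKM, the mean of the libraries, the TPM scale, CPM, 0 reads and at most 30 reads. Within single lists, 14 of 44 counts moved by more than that at 5 FPKM, 3 with CPM and 1 at 0.5 FPKM.

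Shares depend on the scale. The 100 most abundant genes held 20.3% of reads and 29.7% of FPKM among nuclear protein-coding genes. With reads, 907 genes made up 50% of the total. Ribosomal protein genes held 6.56% of reads and 18.4% of FPKM among nuclear protein-coding genes. Read counts weigh long transcripts more by construction. Among the 20 highest genes, 1 of 19 neighbouring places was separated as reported, 4 on the TPM scale, 3 in CPM and between 1 and 7 with a library left out, the last without replicate 3. The median CV ranged from 2.65% without replicate 3 to 7.25% without replicate 1. Counting 1 window per gene, chosen after seeing the data, 64.5% of ribosomal protein starts held the C and pyrimidine pattern.

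The planned comparison of promoter CpG between expressed, low and silent genes is void, since 83.2%, 74.9% and 73.4% of them have a window. Of the ribosomal protein genes 80.5% have one.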

Other observations

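The share of protein-coding genes that were expressed is given by chromosome as a description, without a test. It was lowest on X (387 of 847, 45.7%), chromosome 21 (111 of 241, 46.1%) and chromosome 11 (600 of 1279, 46.9%), of which the last 2 hold the 2 longest runs of silent genes, and highest on chromosome 16 (486 of 835, 58.2%). The median level of expressed genes ran from 6.82 FPKM on chromosome 18 to 17.0 FPKM on chromosome 20.

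The list of translation factors, which also holds NACA, BTF3 and TPT1, not translation factors themselves, was expressed in 13 of 13 cases. Its median of 593 FPKM is the level of BTF3. EEF2, the translocation factor, had 1328, 1390 and 1191 FPKM. EEF1A1 was 66.8 ± 5.35 times as high as EEF1A2, its paralogue of muscle and neurons, which was expressed at 34.8, 34.8 and 34.0 FPKM. Of 377 solute carrier genes 165 (43.8%) were expressed and 117 (31.0%) silent, against 52.8% and 28.01% of all protein-coding genes. Of 53 clustered protocadherin genes, which label single neurons, 40 lay between the limits for silent and expressed genes and 4 were expressed.

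Pseudogenes took 0.694% ± 0.0125 of reads. At 1 FPKM or more in all 3 libraries were 200 of 7222 genes typed pseudogene and 193 of 1118 typed transcribed pseudogene. The highest were EEF1A1P5, RPS28P7 and RPS2P5, copies of highly expressed genes, the last at 196 ± 18.9 FPKM.

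Ordered by the spread of CPM (reads scaled to library size), the genes that follow KIAA0754 include UBR4, a ubiquitin ligase, with 268, 271 and 140 CPM, MKI67, the proliferation marker, with 346, 347 and 199, and HUWE1, another ubiquitin ligase, with 266, 266 and 161. All 3 have long transcripts and are lowest in replicate 3. Other genes near the head of that order differ. C17orf49 was highest in replicate 3 with 7.54, 9.42 and 14.1 CPM, and TXNDC5 was lowest in replicate 2 with 470, 276 and 492 CPM.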
